A study of Homo sapiens with 24 samples.

Results

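Interferon-stimulated genes were followed in 4 cell lines of diffuse large B-cell lymphoma (DLBCL) after the transcription factor FOXP1 was silenced. The genes were taken from a list of 49 human genes known to be induced by interferon and matched by gene name, with the brightest probe standing for each gene. Of the 49, 48 were measured among 30138 genes tested, and CMPK2, found neither by name nor by accession, was not analysed here. DB and K422 are lines of the germinal centre B-cell (GCB) subtype, and HBL-1 and OCI-Ly3 of the activated B-cell (ABC) subtype. Each is an established line, so differences between lines rest on 1 line each. Cells received 1 µM of siFOXP1 #1 or siFOXP1 #2, each a Stealth siRNA against FOXP1, or siCtrl, a low GC duplex without a target, by Nucleofection, and RNA was taken after 48 h. Each of 24 Agilent arrays, read in 2 colours, set 1 siFOXP1 RNA in Cy3 (green) against siCtrl RNA in Cy5 (red), with 3 independent experiments for each line and siRNA. Values below are log2 of siFOXP1 over siCtrl unless they are called levels, and a member is said to have risen or fallen where limma's adjusted p was under 0.05 and log2 was at least 0.5 either way.

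Interferons are secreted when cells sense viral nucleic acid, and type I interferons signal through IFNAR1 and IFNAR2 and the kinases JAK1 and TYK2 to a complex of transcription factors that holds STAT2 and IRF9. That complex binds the interferon-stimulated response element (ISRE) in the promoters of these genes, while interferon gamma acts through GAS elements. The products sense RNA, degrade it, block translation or viral entry, or tag proteins with ISG15. Double-stranded RNA, including introduced duplexes, can be sensed by the same system, and cells of both channels had received a duplex, so a response shared by siFOXP1 and siCtrl cells leaves no mark in the ratio. The dyes were not swapped, so within a line the dye bias of a probe and the effect of silencing cannot be told apart, whereas the difference between the siRNAs and that between lines set arrays of 1 dye orientation against each other.

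The 250 bases before the start of transcription are shown for EPSTI1, IFITM1 and ISG20, which rose, for IFI44, which fell, and for HERC6, which differed between the siRNAs, because they carry or lack the motifs named above. They come from RefSeq (GRCh38.p14), run 5′ to 3′ on the gene's strand, and have in capitals the ISRE core GAAANNGAAA and the GAS letters TTCNNNGAA found on either strand.
EPSTI1 (chr13:42992242-42992491, minus strand): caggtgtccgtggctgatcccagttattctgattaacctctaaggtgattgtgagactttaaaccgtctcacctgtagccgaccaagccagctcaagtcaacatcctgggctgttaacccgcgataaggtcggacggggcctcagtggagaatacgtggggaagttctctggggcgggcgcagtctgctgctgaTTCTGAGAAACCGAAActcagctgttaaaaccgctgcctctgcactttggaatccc
IFITM1 (chr11:313790-314039, plus strand): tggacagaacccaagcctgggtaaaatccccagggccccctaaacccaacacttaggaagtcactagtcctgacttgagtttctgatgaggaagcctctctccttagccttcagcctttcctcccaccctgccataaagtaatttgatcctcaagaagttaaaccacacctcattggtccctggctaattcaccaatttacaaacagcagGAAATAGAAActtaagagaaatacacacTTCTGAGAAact
ISG20 (chr15:88638766-88639015, plus strand): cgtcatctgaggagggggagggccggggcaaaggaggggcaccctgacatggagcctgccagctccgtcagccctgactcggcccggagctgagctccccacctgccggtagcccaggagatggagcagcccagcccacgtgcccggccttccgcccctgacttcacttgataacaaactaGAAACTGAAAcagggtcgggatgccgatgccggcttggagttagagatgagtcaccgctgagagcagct
IFI44 (chr1:78649539-78649788, plus strand): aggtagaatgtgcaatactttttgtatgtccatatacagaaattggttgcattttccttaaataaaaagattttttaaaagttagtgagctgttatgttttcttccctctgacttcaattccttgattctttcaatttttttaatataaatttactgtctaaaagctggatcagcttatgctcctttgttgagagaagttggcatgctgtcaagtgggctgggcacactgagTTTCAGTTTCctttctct
HERC6 (chr4:88378602-88378851, plus strand): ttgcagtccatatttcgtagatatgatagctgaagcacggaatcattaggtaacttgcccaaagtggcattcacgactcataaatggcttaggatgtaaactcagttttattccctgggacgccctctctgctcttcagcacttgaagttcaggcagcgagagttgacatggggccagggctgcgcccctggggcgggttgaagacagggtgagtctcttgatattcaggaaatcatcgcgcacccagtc
In EPSTI1 both motifs overlap, at 41 and 48 bases before the start, and IFITM1 holds an ISRE core at 31 and a GAS at 4 bases before it. ISG20 has an ISRE core 60 bases before its start and IFI44 has one 9 bases before it, on the other strand. HERC6 holds neither set of letters in this window. Of the 36 members with a RefSeq promoter, 20 (55.6%) held the ISRE core against 839 of 27305 promoters of the same length (3.07%), and 11 (30.6%) held the GAS letters against 1850 (6.78%). A match is a string of letters and not a measured binding site. No sequence was matched for DHX58, OAS2, OASL, IFIT2, USP18, IRF7, MX2, GBP2, GBP5, IFITM2, LY6E and TRIM22.

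FOXP1, the targeted gene, fell in all lines and on all 6 arrays of each, with a mean log2 of -1.34 ± 0.47 (SD) for K422, -1.74 ± 0.55 for HBL-1, -1.96 ± 0.54 for OCI-Ly3 and -2.0 ± 0.79 for DB. The siRNAs silenced it to different depths, with means of -0.91 for #1 and -1.76 for #2 in K422 (adjusted p of the difference 0.0246). The B-cell markers MS4A1, CD79A, CD79B, PAX5 and CD22 were well above background in siCtrl cells of all lines, the GCB markers MME and MYBL1 in DB and K422 and not on all arrays of the ABC lines, and the ABC markers IRF4 and CCND2 the reverse, while the third of each list, LMO2 and CFLAR, was above it in all lines. Of the T-cell markers, CD3D, CD3E and CD3G were all well above background in K422, only CD3E in HBL-1 and OCI-Ly3, and none in DB on all arrays. Of the monocyte markers CD14, LYZ and CSF1R, only CSF1R was above background on all arrays of every line, with CD14 in K422 alone and LYZ in no line. Arrays had 57.2 to 64.4% of probes well above background in a channel. The array of siFOXP1 #1 replicate 3 in DB stood apart from its group, with a median of the members of 0.21 where the other 5 DB arrays had 0. Many DB ratios were exactly 0, with neither channel well above background, which holds a median at 0, so those medians show no measured spread.

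Control cells already differed widely in how much interferon-stimulated RNA they held. In siCtrl cells, K422 had most members at levels far above those of HBL-1, with IFITM1, IFI27, RSAD2, IFIT1 and ISG15 among them, while DB had no measurable signal for many. A probe counts here as measured where the scanner software called it well above background. Probes were well above background on all 6 siCtrl arrays for 43 of 48 members in HBL-1 (89.6%), 40 in K422 (83.3%), 37 in OCI-Ly3 (77.1%) and 25 in DB (52.1%), where over all genes the shares were 54.4, 53.3, 52.4 and 49.6%. On none of the 6 arrays were 18 members above background in DB, 10 in OCI-Ly3, 4 in HBL-1 and 3 in K422. HERC5, the ligase that joins ISG15 to proteins, and GBP5, a guanylate-binding GTPase, were not well above background in siCtrl cells of any line.

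**Figure D1:**
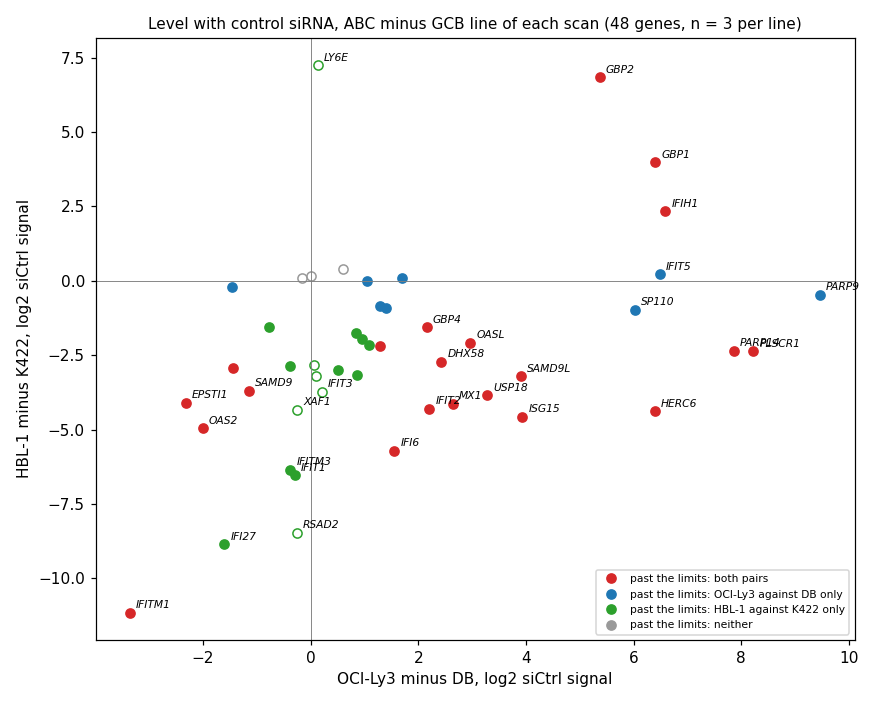
Difference in siCtrl level (log2 of the quantile-normalized Cy5 signal, 3 replicates a line) of each of 48 members, OCI-Ly3 minus DB on the horizontal axis and HBL-1 minus K422 on the vertical, coloured by the pairs in which it was called, with open circles where neither line of a pair was well above background on any array. IFITM1 lies lowest on the vertical axis at -11.15 and PARP9 farthest right. Differences of members above background in 1 line only use the dim line's own signal, and the text gives bounds for those called. For IFIT2 in OCI-Ly3 against DB the bound, 1.26-fold, is under the 2-fold limit.

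Levels were compared between lines scanned in the same session, with 3 replicates a line and calls at an adjusted p under 0.05 and at least 2-fold. K422 was set against HBL-1 and DB against OCI-Ly3. Between these pairs line and scan session cannot be told apart, and orders of all 4 lines below were not tested. HBL-1 had 33 members lower than K422 and 4 higher, where 13.8% of all genes were lower and 11.6% higher. OCI-Ly3 had 23 members higher than DB and 6 lower, where 12.3% were higher and 14% lower. Among the 23, OASL, IFIT2, IFIT5, HERC6, GBP1, GBP2, PLSCR1, PARP9 and PARP14 were on no DB siCtrl array well above background. OASL was at least 2.36-fold higher, IFIT5 17.6-fold, HERC6 12.6-fold and GBP1 16-fold. IFIT2 was at least 1.26-fold higher, a bound under the 2-fold limit. K422 replicates spread further than those of the other lines for many members, for example IFI27 at a level of 14.70 ± 1.62 (SD, n = 3).

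Among the membrane proteins, IFITM1, which holds viruses back at entry, had siCtrl levels (log2, mean ± SD, n = 3) of 16.80 ± 0.65 in K422, 12.17 ± 0.22 in DB, 8.81 ± 0.12 in OCI-Ly3 and 5.64 ± 0.21 in HBL-1. The lines did not overlap, K422 being highest and HBL-1 lowest, and HBL-1 minus K422 was -11.15 (adjusted p 2.23e-10). Its neighbour IFITM3 was also lower in HBL-1 than K422 (a log2 difference of -6.35, adjusted p 8.14e-08). LY6E, a membrane protein anchored by lipid, ran the other way, at 9.65 ± 0.15 in HBL-1 and not well above background on 5 of 6 arrays of K422. PLSCR1, a scramblase, was at least 48.7-fold higher in OCI-Ly3 than in DB (adjusted p 6.53e-09), where it was not well above background.

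ISG15, the ubiquitin-like modifier, had levels of 17.47 ± 0.51 in K422, 12.90 ± 0.17 in HBL-1, 11.25 ± 0.02 in OCI-Ly3 and 7.32 ± 0.12 in DB. The order K422, HBL-1, OCI-Ly3, DB held for MX1, a GTPase that traps viral nucleocapsids, at 16.38 ± 0.29, 12.25 ± 0.05, 8.07 ± 0.19 and 5.43 ± 0.24. From HBL-1 to OCI-Ly3 this order also changes scan session, so line and session cannot be told apart there. RSAD2 (viperin), which makes a chain-terminating nucleotide, was at least 129-fold higher in K422 than in HBL-1 (adjusted p 1.11e-07), where it was not well above background. Levels of OAS2, which makes oligoadenylates that activate RNase L, were at least 27.1-fold higher in K422 than HBL-1 (adjusted p 5.12e-07). The guanylate-binding GTPase GBP2 went against this pattern, being at least 35.6-fold higher in HBL-1 than K422 (adjusted p 2.19e-08) and at least 8-fold higher in OCI-Ly3 than DB (adjusted p 1.30e-07). PARP9 and PARP14, ADP-ribosyltransferases, were at least 105-fold and 72.6-fold higher in OCI-Ly3 than DB (adjusted p 5.75e-12 and 5.34e-08). The 6 members lower in OCI-Ly3 than DB were OAS2, MX2, IFITM1, SAMD9, EPSTI1 and TRIM22.

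After FOXP1 silencing, HBL-1 had the most members changed, 10 higher and 3 lower, followed by OCI-Ly3 with 8 higher and none lower, K422 with 2 higher and DB with 1 lower. Against this, 5.73% of all genes rose and 4.17% fell in HBL-1, while the shares were 2.8% and 1.62% for OCI-Ly3, 2.34% and 2.1% for K422, and 1.33% and 0.826% for DB. The probes (60 bases each) of 6 members shown in detail lie, in hg18, at chr11:305209-305268 for IFITM1 on the plus strand, chr4:89583060-89583119 for HERC6 on the plus strand, chr15:86999788-86999847 for ISG20 on the plus strand, and chr1:78901067-78901126 for IFI44 on the plus strand. The GBP2 and EPSTI1 probes, on the minus strand, span chr1:89348484-89350748 and chr13:42398538-42426115 in the genome, longer than the probe itself. The members' medians were 0.13, 0.14, 0.08 and 0 in that order, with a median of 0 over all genes in each line. Log2 was above 0 for 37 of 48 members in OCI-Ly3, where 46% of all genes were. With normexp background correction and an offset of 50, HBL-1 had 5 members higher and none lower after loess, and 2 higher and 3 lower after median centring. Likewise OCI-Ly3 had 5 higher after either, and K422 2 higher after loess but 2 lower, IFITM1 and ISG15, after median centring. The call in DB was lost in both. In all, 19 members passed one of these tests or those of the siRNAs and subtypes, and 29 passed none. The share of all genes passing any of these tests was not counted, so 19 only says how many members are named. Some of these calls were lost in alternatives or lay near background, as given below.

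**Figure D2:**
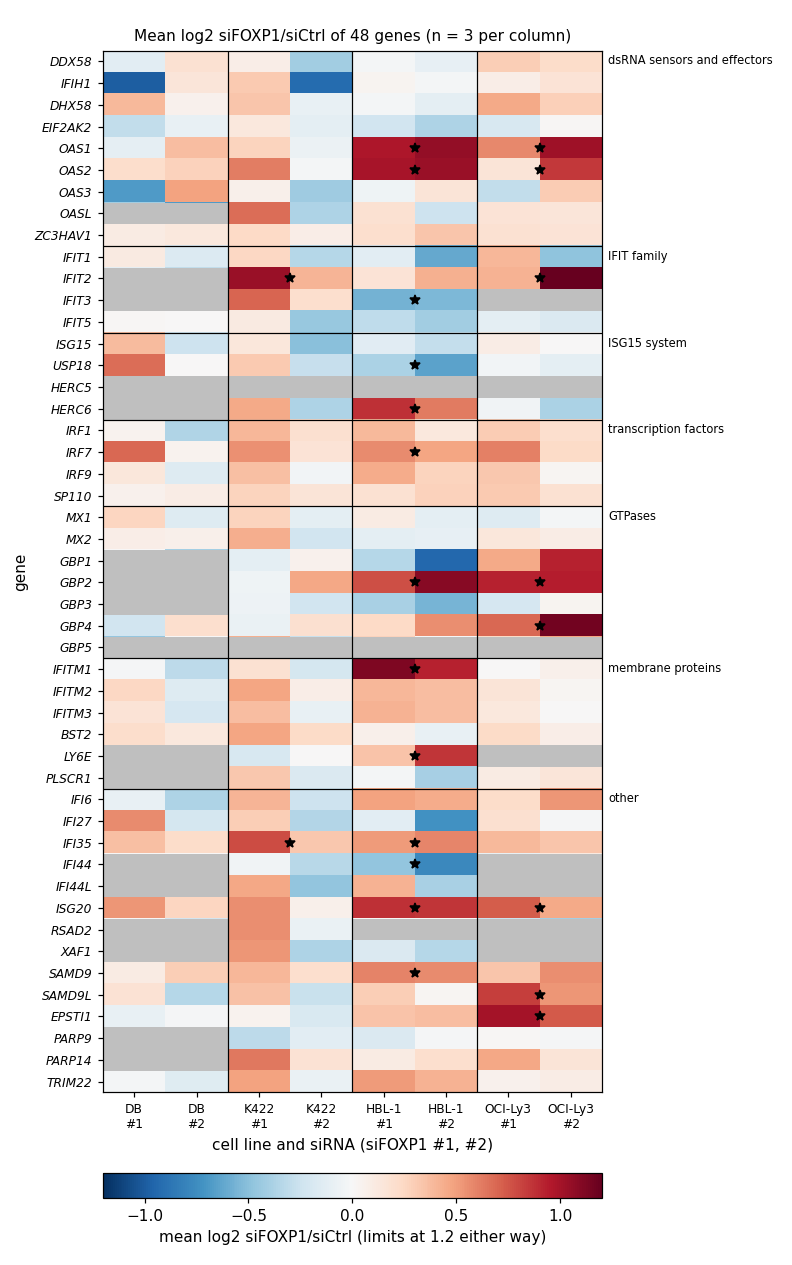
Mean log2 of siFOXP1 over siCtrl for each of 48 members (rows, by role) with each siRNA in each line (columns, 3 arrays a column less outlier spots), red above 0 and blue below, with a star on the line where both siRNAs together were called. Grey marks lines where neither channel was well above background on any array, 17 members in DB, so the call of OASL in DB is not starred.

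Of the sensors and effectors of double-stranded RNA, OAS1 rose in both ABC lines and OAS2 in HBL-1. OAS1 ran from 0.76 to 1.21 in HBL-1 with a median of 0.98, mean 1.01 ± 0.17 (SD, n = 6 arrays, adjusted p 9.70e-05), and in OCI-Ly3 from 0.44 to 1.16 with a median of 0.73, mean 0.80 ± 0.29 (adjusted p 0.00201). All arrays of both lines were above 0, whereas in DB they ran from -1.25 to 0.81. OAS2 ran from 0.64 to 1.67 in HBL-1 with a median of 0.93 and mean 1.01 ± 0.36 (adjusted p 4.65e-05), but its siCtrl signal there was on no array well above background, so the rise was at least 1.13-fold, a bound open to dye bias. In OCI-Ly3 OAS2 ran from -0.12 to 1.4 with a median of 0.30 and mean 0.50 ± 0.61 (adjusted p 0.0269), with 5 of 6 arrays above 0. That call was lost with the replicate block, the slide block, OCI-Ly3 fitted alone and without OCI-Ly3 replicate 1 or 2, and the mean was 0.11 (adjusted p 0.177) with normexp and loess. RIG-I (listed as DDX58), the sensor of viral RNA ends, and EIF2AK2, the kinase that halts translation, were called in no line, though EIF2AK2 was called lower in HBL-1 with normexp and median centring. OASL, a relative of the OAS enzymes without their activity, was the 1 member called in DB (-0.55 ± 0.62, adjusted p 0.0360), had neither channel well above background there, and was not called with the replicate or slide block or without 1 of DB replicate 1, K422 replicate 2, OCI-Ly3 replicate 2 and any HBL-1 replicate. Without DB replicate 3, 4 members were called in DB, OAS1 higher and IFIH1, IRF1 and OASL lower.

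The IFIT family binds foreign RNA and hinders its translation. IFIT2 rose in K422 (0.12 to 1.31, median 0.65, mean 0.72 ± 0.46, adjusted p 0.0159) and in OCI-Ly3 (0.04 to 1.91, median 0.61, mean 0.90 ± 0.72, adjusted p 0.00396), with a wide spread over arrays in both. IFIT3 fell in HBL-1 (-0.69 to -0.44, median -0.58, mean -0.55 ± 0.10, adjusted p 0.0444), where its 6 arrays were all below 0. This call was lost with the replicate block, the slide block and either normexp setting (-0.21 with loess, -0.26 with median centring), and without any 1 replicate of HBL-1, DB or K422 or without OCI-Ly3 replicate 3. The IFIT2 call was lost in K422 with the slide block, without K422 replicate 1 or 2, and with normexp and median centring (0.49). In OCI-Ly3 the IFIT2 call was lost without OCI-Ly3 replicate 2 or 3 and with either normexp setting (0.33 with loess, 0.34 with median centring). A second probe for IFIT2 in OCI-Ly3 gave a mean of 0.20 and was well above background on 1 array in siFOXP1 and 0 in siCtrl.

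In the ISG15 system, HERC6, a HECT-type ligase, rose in HBL-1 and USP18, which removes ISG15, fell there. HERC6 in HBL-1 ran from 0.53 to 1.07 with a median of 0.71, mean 0.75 ± 0.18 (adjusted p 7.75e-09), and all 6 arrays were above 0. With normexp and loess the mean was 0.34 (adjusted p 1.09e-05). The arrays of OCI-Ly3 lay lower, from -0.45 to 0.06, and those of K422 overlapped HBL-1 at -0.50 to 0.61. USP18 ran from -0.83 to -0.25 in HBL-1 with a median of -0.45, mean -0.51 ± 0.23 (adjusted p 0.00695), and its second probe, above background in both channels on every array, gave -0.13. The USP18 call was lost with the slide block, the mean over probes, normexp and loess (-0.40), and without HBL-1 replicate 1 or 3. IRF7, the factor that amplifies interferon genes, rose in HBL-1 from 0.44 to 0.59 with a median of 0.53, mean 0.52 ± 0.06 (adjusted p 8.24e-04). Its mean reached 0.41 for OCI-Ly3, 0.37 for DB and 0.35 for K422, without a call. A second IRF7 probe was highest for DB (0.69), then OCI-Ly3 (0.60), HBL-1 (0.56) and K422 (0.41). The call therefore does not set HBL-1 apart. With normexp it stayed after loess (0.60) and was lost after median centring (0.29, adjusted p 0.130).

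Of the GTPases, GBP2 rose in both ABC lines and GBP4 in OCI-Ly3. GBP2, which coats intracellular pathogens, ran from 0.74 to 1.16 in HBL-1 with a median of 0.91 and mean 0.94 ± 0.18 (adjusted p 1.68e-06), and from 0.72 to 1.22 in OCI-Ly3 with a median of 0.87 and mean 0.93 ± 0.18 (adjusted p 5.89e-06). All 12 arrays of the ABC lines were above 0, while in DB and K422 the siCtrl signal was on no array well above background. GBP4 ran from 0.51 to 1.36 in OCI-Ly3 with a median of 0.82, mean 0.92 ± 0.33 (adjusted p 1.56e-05), and a second probe gave 0.95. In HBL-1 GBP4 ran from 0.11 to 0.85 with a median of 0.30. GBP1 gave -0.64 in HBL-1 and 0.69 in OCI-Ly3 on one probe and -0.85 and 0.55 on another, and passed neither test. It was called higher in OCI-Ly3 with either normexp setting. With the mean over probes, and without K422 replicate 2 or 3, it was called higher in OCI-Ly3 and lower in HBL-1.

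Of the membrane proteins, IFITM1 and LY6E rose in HBL-1. IFITM1 ran from 0.70 to 1.30 with a median of 1.04 and mean 1.02 ± 0.23 (adjusted p 5.14e-09), the arrays of HBL-1 lying apart from those of OCI-Ly3 (-0.05 to 0.17), K422 (-0.37 to 0.21) and DB (-0.35 to 0.27). HBL-1 was also the line with the lowest siCtrl level of IFITM1, and with normexp and loess its mean there was 0.41 (adjusted p 7.38e-05), under the limit of 0.5. LY6E ran from 0.29 to 1.05 in HBL-1 with a median of 0.52 and mean 0.60 ± 0.33 (adjusted p 4.57e-04). Reporters for IFITM2 and IFITM3 shared at most 34 of 60 bases in ungapped alignment and those of IFITM1 at most 21 with either, and binding of a reporter to a neighbour's RNA was not tested.

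**Figure D3:**
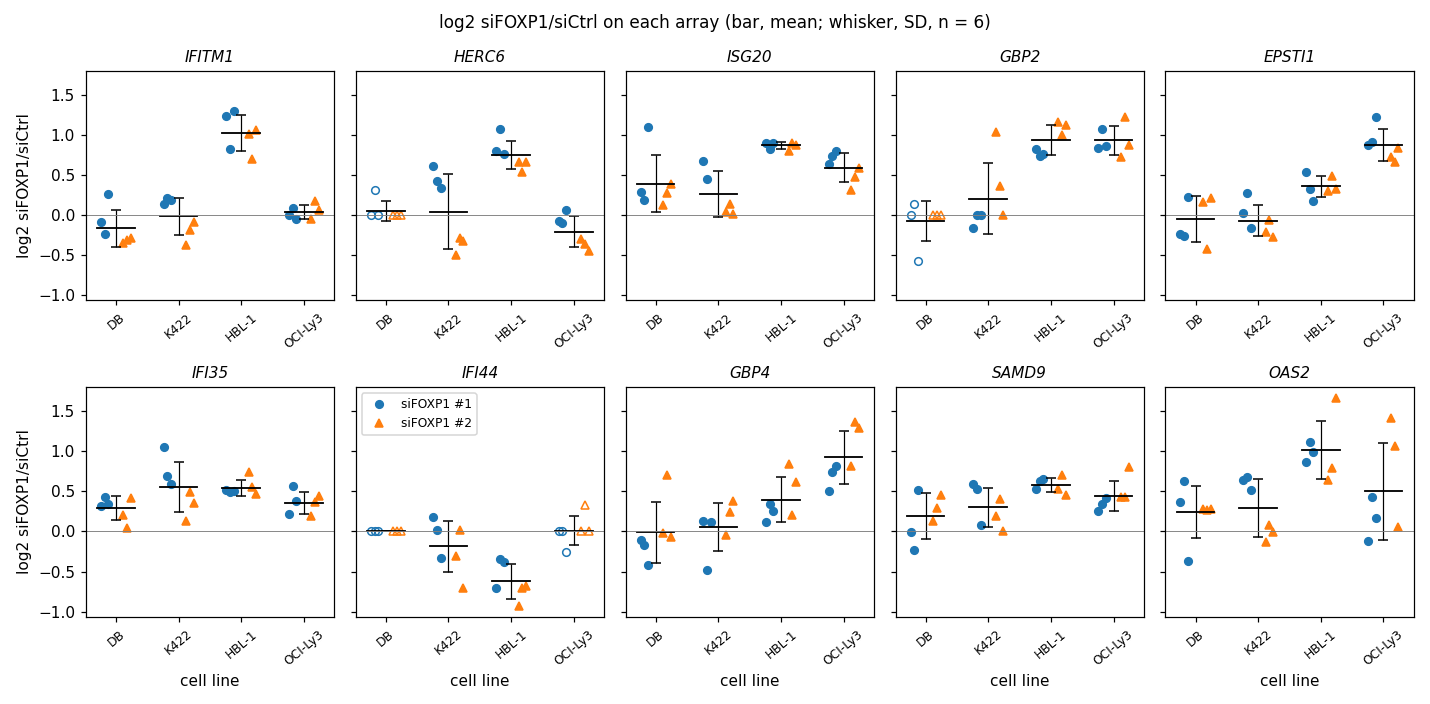
Log2 of siFOXP1 over siCtrl on each array for the 10 members shown in detail, by line, with circles for siFOXP1 #1, triangles for #2, bars for the mean and whiskers for the SD of 6 arrays (5 for ISG20 in K422). Open symbols mark lines where neither channel was well above background on any array, and IFITM1 stands at 0.70 to 1.30 in HBL-1, GBP2 at 0.72 to 1.22 over both ABC lines, and HERC6 splits by siRNA in K422.

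Among the remaining members, EPSTI1, an interferon-responsive protein of epithelium and stroma, rose in OCI-Ly3 and ISG20, an RNA exonuclease, in both ABC lines. EPSTI1 ran from 0.66 to 1.23 in OCI-Ly3 with a median of 0.85 and mean 0.87 ± 0.20 (adjusted p 1.88e-06), above every array of the other lines with HBL-1 at 0.18 to 0.54, and its second probe was on no OCI-Ly3 array well above background. With normexp and loess the mean of EPSTI1 was 0.35 (adjusted p 8.17e-05). ISG20 ran from 0.80 to 0.90 in HBL-1 with a median of 0.89 and mean 0.87 ± 0.05 (adjusted p 6.71e-07), the smallest SD of the 13 members called there, and from 0.31 to 0.79 in OCI-Ly3 with a median of 0.61 and mean 0.59 ± 0.18 (adjusted p 9.63e-05). With normexp and loess its mean was 0.83 in HBL-1 and 0.49 in OCI-Ly3. After median centring it was 0.38 (adjusted p 0.0674) and 0.23 (adjusted p 0.571), so only the HBL-1 call with loess remained. IFI35 rose in K422 (0.14 to 1.05, median 0.54, mean 0.55 ± 0.31, adjusted p 1.16e-05) and HBL-1 (0.46 to 0.74, median 0.51, mean 0.55 ± 0.10, adjusted p 3.53e-06), and all 24 arrays of the series were above 0. SAMD9, a restrictor of poxviruses, rose in HBL-1 (0.46 to 0.70, median 0.58, mean 0.58 ± 0.09, adjusted p 4.28e-05, with its other 3 probes at 0.26 to 0.44), and SAMD9L, its neighbour, in OCI-Ly3 (0.45 to 0.99, median 0.71, mean 0.68 ± 0.20, adjusted p 2.27e-04). IFI44 fell in HBL-1, from -0.93 to -0.35 with a median of -0.69 and mean -0.62 ± 0.22 (adjusted p 9.61e-06), where K422 ran from -0.70 to 0.18. In DB and OCI-Ly3, IFI44 was on no siCtrl array well above background. The HBL-1 calls of SAMD9 (0.41 with normexp and loess, 0.23 with median centring) and IFI35 (0.42 and 0.24) were lost with either normexp setting. SAMD9 also lost its call with the mean over probes. The IFI44 call was lost with loess (-0.48) and stayed after median centring (-0.63). IFI35 in K422 stayed called after loess (0.54) and not after median centring (0.39), while SAMD9L stayed in both (0.57 and 0.53).

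The siRNAs were then compared with each other, as #2 minus #1 in each line. In K422, HERC6 and MX2 were lower with siFOXP1 #2 and most other members lay below 0. There 2 members passed the test, where 0.159% of all genes passed, while none did so in DB, HBL-1 or OCI-Ly3, where 0.302, 0.173 and 0.192% of genes did. Member medians of the difference were -0.46 for K422, -0.11 for DB, -0.09 for HBL-1 and -0.05 for OCI-Ly3, and 42 of 48 members were below 0 in K422 where 45.4% of all genes were. The K422 arrays of #1 had member medians of 0.56, 0.27 and 0.13 and those of #2 -0.15, 0 and -0.18, so no array of #1 was as low as any of #2.

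HERC6 in K422 had 0.61, 0.43 and 0.33 with siFOXP1 #1 and -0.50, -0.28 and -0.33 with #2. The groups did not overlap, and the difference was -0.83 (95% CI -1.04 to -0.62, adjusted p 0.00112). MX2, a GTPase at the nuclear pore, had 0.82, 0.34 and 0.15 with #1 and -0.34, -0.08 and -0.28 with #2, a difference of -0.67 (95% CI -0.92 to -0.43, adjusted p 0.0218). A second HERC6 probe gave means of 0.60 with #1 and -0.33 with #2. Elsewhere the HERC6 difference was -0.34 in OCI-Ly3 (95% CI -0.55 to -0.13, adjusted p 0.302) and -0.25 in HBL-1 (95% CI -0.46 to -0.04, adjusted p 0.667).

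Every array of #2 was below every array of #1 for 24 of 45 members with all arrays in K422, where 5.54% of all genes showed that, and above for 1. The count of members below was 12 of 48 in HBL-1 (5.94% of genes), 8 of 48 in OCI-Ly3 (5.76%) and 4 of 48 in DB (4.68%). Members above numbered 5 in HBL-1, 5 in OCI-Ly3 and 3 in DB, and the share of all genes above was not counted. The 24 in K422 included the sensors IFIH1 and DHX58, all 4 OAS genes, IFIT5, IRF7 and IRF9, IFITM1 and IFITM3, IFI6 and IFI27. In K422, arrays of the same replicate number gave medians of #2 minus #1 of -0.66, -0.34 and -0.33, with 43, 40 and 38 members lower. Over all genes, 42.4, 40.4 and 41.9% were lower in these pairs. With the replicate number as a block, 4 members passed in K422 (0.465% of all genes), HERC6 and MX2 joined by IFIT5 (-0.56, adjusted p 0.0231) and TRIM22 (-0.57, adjusted p 0.0349). With that block OAS3 passed in DB (1.16, adjusted p 0.0290, against 1.07% of all genes, with OAS3 well above background on 2 of 6 arrays). A second OAS3 probe had means in DB of 0.19 with #1 and 0.24 with #2, and was on no siCtrl array well above background. The K422 count was 8 with normexp and loess and 0 with normexp and median centring, with K422 fitted alone or with the mean over probes, and it was 1, HERC6, without K422 replicate 1, HBL-1 replicate 1, HBL-1 replicate 3 or OCI-Ly3 replicate 3, and 3 without DB replicate 3 or K422 replicate 3. FOXP1 itself moved with the siRNA, lower with #2 in all lines, and the part of its depth in these differences was not tested.

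**Figure D4:**
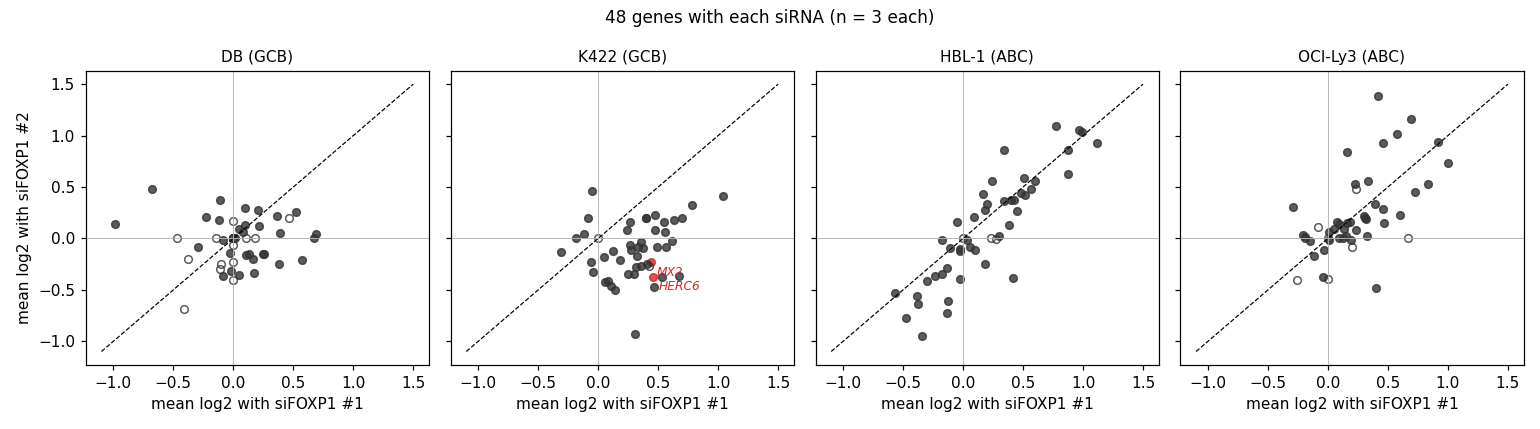
Mean log2 with siFOXP1 #2 (vertical) against siFOXP1 #1 (horizontal) for each member, 1 panel a line, with 3 arrays a mean and open circles where neither channel was well above background. In K422, 42 of 48 points lie below the dashed line of equal values, and HERC6 and MX2 (red) passed the test of the difference.

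**Figure D5:**
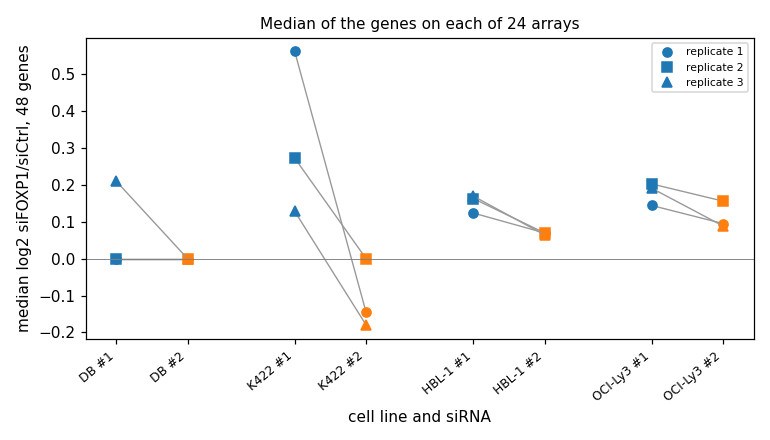
Median log2 of siFOXP1 over siCtrl over the 48 members on each of 24 arrays, by line and siRNA, with grey lines joining arrays of the same replicate number. In K422 the arrays of #1 lie at 0.13 to 0.56 and those of #2 at -0.18 to 0, and in HBL-1 and OCI-Ly3 every line falls from #1 to #2 by less than in K422.

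The response of the ABC lines was set against that of the GCB lines, as the mean of HBL-1 and OCI-Ly3 minus the mean of DB and K422. IFITM1, EPSTI1, GBP4 and OAS1 responded more in the ABC lines, and no member was called lower. GBP2 was the fifth member called, but its response was not measured in the GCB lines, where DB had neither channel well above background and K422 had siFOXP1 above it on 1 array, so no difference is read from it. The 5 calls stand beside 1.4% of all genes higher and 0.866% lower. EPSTI1 differed by 0.67 (adjusted p 5.54e-05), at 0.43 for HBL-1 against K422 and 0.92 for OCI-Ly3 against DB, the pairs that shared a scan session. For IFITM1 the difference was 0.62 (adjusted p 1.04e-05), at 1.04 (adjusted p 1.13e-06) and 0.20 (adjusted p 0.345). GBP4 differed by 0.64 (adjusted p 0.00125), at 0.34 (adjusted p 0.209) and 0.94. OAS1 differed by 0.79 (adjusted p 0.00501), at 0.91 (adjusted p 0.0164) and 0.66 (adjusted p 0.161). With normexp the count of 5 became 2 after loess and 3 after median centring, and GBP2 was among them both times. Of the 4 measured members, only OAS1 (0.71) stayed called after loess. GBP4 (0.37), IFITM1 (0.40) and EPSTI1 (0.33) were then under the log2 limit for a call. After median centring OAS1 (0.70) and IFITM1 (0.67) stayed, while GBP4 (0.38) and EPSTI1 (0.39) were lost. With 2 lines a subtype, subtype and line cannot be told apart.

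The wider interferon system was read from 66 further genes, of ligands, receptors, kinases and factors, brakes, sensors and targets of interferon gamma. In HBL-1 10 of these rose and 1 fell, in K422 3 and 1, in OCI-Ly3 2 and 1, and in DB none and 2. Over all genes, the shares that rose and fell were 5.73% and 4.17% for HBL-1, 2.34% and 2.1% for K422, 2.8% and 1.62% for OCI-Ly3, and 1.33% and 0.826% for DB. None of the 16 interferon genes measured passed in any line, and 12 to 14 of them were on no siCtrl array well above background. IFNA4 and IL28A were well above background on all 6 siCtrl arrays of K422, IL28A on all 6 of HBL-1, and none in DB or OCI-Ly3. The rises in HBL-1 included the lambda interferon receptor IL28RA (1.61 ± 0.28, adjusted p 7.06e-12), the factor IRF8 (1.19 ± 0.21, adjusted p 5.07e-10), STAT2 (0.75 ± 0.15, adjusted p 2.73e-06), JAK2 (0.65 ± 0.22, adjusted p 2.08e-08), IRF3, TYK2 and SOCS1. Sensors of nucleic acid AIM2 and IFI16 rose in HBL-1 (1.15 and 0.67) and in K422 (0.81 and 0.61). SOCS3, a brake on cytokine signalling, fell in HBL-1 with a mean of -1.40 ± 1.01 (adjusted p 6.14e-08), but more with siRNA #2 (-2.28) than #1 (-0.53, adjusted p of the difference 0.00185). In OCI-Ly3 the chemokine gene CXCL9 fell (-1.33 ± 0.12, adjusted p 2.30e-05) and TLR8 rose (at least 1.19-fold, adjusted p 2.42e-11, its siCtrl signal on no array above background), while IDO1 was called with neither channel above background.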

How the data were processed

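RNA of siFOXP1 and siCtrl cells was hybridised on 24 Agilent 2-colour arrays of 45015 spots (1639 control spots). Per the file headers, the authors' scanner output came from Feature Extraction 10.7.3.1 (K422, HBL-1) and 10.5.1.1 (DB, OCI-Ly3), with background-subtracted, dye-normalized intensity values and a log10 ratio of red over green, and probe positions in hg18. The deposited value matrix of log2 ratios (columns' medians -0.173 to 0.067, so not centred on 0) served as an alternative.

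The log10 ratio was turned to log2 of siFOXP1 over siCtrl. Control spots and outlier flags (113 to 469 spots an array) were left out, probes averaged and the brightest probe of a gene kept. Of 1149 member ratios, 139 were exactly 0, all where neither channel was well above background. Lines, siRNAs and subtypes were compared with limma 3.58.1 in R 4.3.3, in 1 fit over all 24 arrays with Benjamini-Hochberg adjustment over 30138 genes. Levels came from the Cy5 signal, quantile normalized, arrays of the same line and number averaged (30141 genes). An "at least" fold sets the bright mean against the higher of the lowest signal well above background and the dim probe's own. The scripts were tested on simulated data.

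The series' design text tells of 3 independent experiments without tying replicate numbers to them. Same-numbered arrays of a line shared a slide, so the number entered as a block in an alternative only. Deviations of same-numbered arrays of #1 and #2 correlated at 0.0468 to 0.284 over all genes in 12 pairs. Over bright genes only, the 12 pairs correlated at 0.0906 to 0.535. Scan session separates K422 and HBL-1 from DB and OCI-Ly3. The members, gene lists and tests were chosen with earlier results of these data known. Members called in a line, an siRNA or a subtype comparison were named, with the 10 of lowest adjusted p shown in detail, and the others were counted. Motifs were searched in RefSeq promoters. Alternatives covered background correction, normalization, dim-spot filters, outlier spots, probe choice, blocks, single siRNAs and replicates left out.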

Additional observations from a re-analysis of the deposited data

Results flagged for a closer look

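In DB, the array of siFOXP1 #1 replicate 3 had a member median of 0.21, where the other 5 arrays had 0. Those medians are held at 0 by ratios of exactly 0 near background, so any other median would have been flagged. In HBL-1, IFI35 was 0.74 in siFOXP1 #2 replicate 1 and 0.46 to 0.56 on the other arrays. Chance places about 1 in 20 groups beyond the limit used, and 2 of 28 groups were beyond it, where 1.4 would be by chance.

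The siRNAs differed in K422 for HERC6, by -0.83, and MX2, by -0.67, in the test of the difference itself. The subtypes differed in the response of EPSTI1 (0.67), GBP4 (0.64), IFITM1 (0.62) and OAS1 (0.79), of which only OAS1 was also called with normexp and loess. The same contrast gave 0.87 for GBP2, which was on no siCtrl array of DB or K422 well above background, so this value is no measured difference.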

How the results depend on the processing

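Directions of the named genes did not turn in any alternative, where of the values in the alternatives 654 stayed on their side of the threshold and 105 did not. In DB the 1 call became 0 with normexp and loess, normexp and median centring, the replicate block, the slide block, the line fitted alone, the test of the study's methods and siFOXP1 #2 alone, 2 with the mean over probes, 3 with the deposited matrix and 5 with siFOXP1 #1 alone, and 0 to 4 with a replicate left out. The DB siRNA difference of 0 became 1 with either dim-spot filter, the replicate block and the slide block, and 0 to 3 with a replicate left out. In K422 the 2 calls became 1 with the slide block and the methods' test and 4 with siFOXP1 #1 alone, and 1 to 2 with a replicate left out. The K422 siRNA difference of 2 became 8 with normexp and loess, 4 with the replicate block, 1 with the deposited matrix and 0 with normexp and median centring, the mean over probes, the line fitted alone and the methods' test, and 1 to 3 with a replicate left out. In HBL-1 the 13 calls became 5 with normexp and loess and 5 with normexp and median centring, and 11 to 13 with a replicate left out. In OCI-Ly3 the 8 calls became 5 with either normexp setting and 7 to 9 with a replicate left out. The siRNA difference was 0 in HBL-1 and OCI-Ly3 in every alternative. The subtype difference of 5 became 2 with normexp and loess, 3 with normexp and median centring and 8 for HBL-1 against K422 only, and 5 to 7 with a replicate left out. The baseline counts were 29 for OCI-Ly3 against DB (28 to 30 with a replicate left out) and 37 for HBL-1 against K422 (37 to 40). The replicate block changed no other count by over 1.5 times. The cause was not tested. With 3 replicates a group and many members near background in DB, small changes there were not measurable.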
